A study of Mus musculus with 4 samples.

Results

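In mouse CD4 T cells profiled by ATAC-seq, 36 regions were both open in every library and at least 2500 bp wide. ATAC-seq finds open chromatin with a transposase that inserts sequencing adapters into accessible DNA, and each library had its own deposited list of peaks. Peaks of the 4 lists that overlapped by at least 1 bp were merged into 97394 regions, of which 26867 (27.6%) held a peak in all 4 libraries and are called shared here. The 36 broad regions made up 0.134% of the shared regions, and no region of that width lacked a peak in any library. The regions were chosen by their measured presence and merged width, which are therefore given as a description without a test.

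The cells carried the transgenic SMARTA T cell receptor, which recognises the GP61 peptide, and the hosts bore the melanoma line B16-GP61, which displays it, and had received cytoxan, an alkylating agent toxic to lymphocytes. Donor cells were naive at transfer and were taken by sorting on day 11 from the lymph node that drains the tumor (tdLN). KO cells lacked TOX, an HMG-box DNA-binding protein of T cells, and came from a gate of CD4+ Ly5.1+ Ly5.2- cells low in PD1, LAG3 and CD39 (2 libraries, KO-1 and KO-2). WT cells had TOX and came from a gate of CD4+ Ly5.1+ Ly5.2+ cells high in PD1, LAG3 and CD39 (2 libraries, WT-1 and WT-2). Genotype, congenic marker and gate cannot be told apart, and the sources used here give neither the age of the mice nor how Tox was deleted. Nothing in the labels says that the libraries came from separate animals, so a p-value measures only the spread between these libraries.

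Open chromatin at a gene's start usually forms a short window without nucleosomes, where transcription factors and RNA polymerase bind. In mammals many starts lie in CpG islands, stretches rich in G, C and the CG dinucleotide that are mostly unmethylated and stay accessible in many cell types. Genes that define a cell type often depend more on enhancers, which are separate, usually shorter elements that open in few cell types.

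The sequence at the starts inside the broad regions can be read directly. RefSeq promoter windows on GRCm38.p6, from 250 bases before a start to 50 after it, were at hand for 29 starts of 21 genes. One window each is shown for genes of several kinds, with every CG dinucleotide in capitals: Arid1b and Bcor for chromatin regulators, Ing2 for histone deacetylase complexes, Klf13 for lymphoid transcription factors, Btg2 for feedback genes, and Vim, chosen after its values were seen, for the lowest CG count.
Arid1b, chr17:4994824-4995123, plus strand: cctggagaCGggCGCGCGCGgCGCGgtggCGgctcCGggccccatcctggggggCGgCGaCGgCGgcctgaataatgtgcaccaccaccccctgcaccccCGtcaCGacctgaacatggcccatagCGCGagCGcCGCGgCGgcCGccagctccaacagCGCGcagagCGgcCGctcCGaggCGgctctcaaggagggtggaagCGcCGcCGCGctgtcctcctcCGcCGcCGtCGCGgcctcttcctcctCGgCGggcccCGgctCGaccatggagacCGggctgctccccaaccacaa
Ing2, chr8:47675110-47675409, minus strand: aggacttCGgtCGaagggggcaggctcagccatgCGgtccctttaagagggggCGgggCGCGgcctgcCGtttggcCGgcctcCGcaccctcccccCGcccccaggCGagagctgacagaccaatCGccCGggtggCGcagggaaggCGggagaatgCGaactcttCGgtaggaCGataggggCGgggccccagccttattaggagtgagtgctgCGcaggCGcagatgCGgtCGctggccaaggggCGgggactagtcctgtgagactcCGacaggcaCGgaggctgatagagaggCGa
Klf13, chr7:63938866-63939165, minus strand: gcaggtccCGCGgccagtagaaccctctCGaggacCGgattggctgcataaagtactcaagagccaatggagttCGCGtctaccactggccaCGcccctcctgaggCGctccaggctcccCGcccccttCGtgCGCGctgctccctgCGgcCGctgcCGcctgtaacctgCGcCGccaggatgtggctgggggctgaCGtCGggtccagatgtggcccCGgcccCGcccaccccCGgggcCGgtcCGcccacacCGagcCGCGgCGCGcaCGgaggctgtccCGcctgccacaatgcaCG
Btg2, chr1:134079106-134079405, minus strand: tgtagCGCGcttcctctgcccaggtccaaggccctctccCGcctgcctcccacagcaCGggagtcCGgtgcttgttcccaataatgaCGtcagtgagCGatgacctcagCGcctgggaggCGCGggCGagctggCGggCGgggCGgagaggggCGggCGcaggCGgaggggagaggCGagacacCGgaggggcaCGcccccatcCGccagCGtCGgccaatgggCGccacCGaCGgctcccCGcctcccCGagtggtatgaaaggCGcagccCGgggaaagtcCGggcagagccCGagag
Bcor, chrX:12160297-12160596, minus strand: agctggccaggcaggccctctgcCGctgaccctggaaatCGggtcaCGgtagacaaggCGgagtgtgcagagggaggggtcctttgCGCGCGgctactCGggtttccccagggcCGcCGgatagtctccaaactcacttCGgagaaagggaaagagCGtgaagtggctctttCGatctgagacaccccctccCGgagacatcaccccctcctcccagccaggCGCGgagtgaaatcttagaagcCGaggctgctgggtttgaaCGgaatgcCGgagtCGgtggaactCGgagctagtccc
Vim, chr2:13574061-13574360, plus strand: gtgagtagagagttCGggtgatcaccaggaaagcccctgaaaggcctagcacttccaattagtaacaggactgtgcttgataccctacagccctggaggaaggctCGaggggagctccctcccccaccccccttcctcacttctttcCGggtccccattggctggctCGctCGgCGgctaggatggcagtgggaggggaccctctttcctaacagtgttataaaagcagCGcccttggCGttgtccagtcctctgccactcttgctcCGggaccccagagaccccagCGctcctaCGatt
For comparison, 2 T cell identity genes that had no broad region are shown in the same way, also chosen after their values were seen.
Cd3e, chr9:45009562-45009861, minus strand: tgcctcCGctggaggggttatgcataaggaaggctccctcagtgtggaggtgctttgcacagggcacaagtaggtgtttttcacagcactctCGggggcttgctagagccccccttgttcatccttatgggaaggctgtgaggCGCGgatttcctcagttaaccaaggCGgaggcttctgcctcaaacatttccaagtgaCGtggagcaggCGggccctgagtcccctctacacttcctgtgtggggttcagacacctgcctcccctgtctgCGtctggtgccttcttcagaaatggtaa
Lck, chr4:129558323-129558622, minus strand: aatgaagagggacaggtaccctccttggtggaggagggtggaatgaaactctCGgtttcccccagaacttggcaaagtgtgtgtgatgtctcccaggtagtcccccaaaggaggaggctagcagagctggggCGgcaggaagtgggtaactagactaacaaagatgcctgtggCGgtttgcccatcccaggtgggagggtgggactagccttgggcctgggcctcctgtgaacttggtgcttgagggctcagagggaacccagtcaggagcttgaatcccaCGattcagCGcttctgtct

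The Arid1b window held 42 CG dinucleotides in 300 bases, the Klf13 and Btg2 windows 32 each, the Ing2 window 27, the Bcor window 21 and the Vim window 11. The Cd3e window held 8 and the Lck window 5, below all 6 windows of the broad regions shown. Other T cell identity genes went the other way. The richest windows of Tcf7, Satb1 and Runx3 held 45 each, above all 6. The windows of T cell identity genes ran from 0 to 45 with an upper quartile of 12.25, so Cd3e and Lck do not stand for all of them.

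Across the 29 windows of the broad regions the median GC content was 69.3% (range 57.0 to 82.7%) and the median number of CG dinucleotides was 29 (11 to 55). In windows inside shared regions of 1000 to under 2500 bp (7497 windows) the medians were 63.7% and 24. In windows inside shared regions under 1000 bp (2510 windows) they were 58.7% and 18. GC content and CG number were thus highest at the broad regions and were lower in narrower regions. Windows in no shared region (11009) had medians of 50.3% and 4, and all 21045 windows in the table had 56.7% and 13. The ratio of observed to chance CG pairs given the base composition exceeded 0.6, a usual CpG island limit, in 26 of 29 windows of the broad regions (89.7%), in 85.3% of those in shared regions of 1000 to under 2500 bp and in 48.1% of all windows. The 42 windows of 26 T cell identity genes had a median GC content of 57.0% and a median of 7.5 CG dinucleotides (0 to 45). The ratio exceeded 0.6 in 23.8% of them. These windows were taken wherever the start lay, some of them, such as that of Bcl11b, in no region. Windows were at hand for 26 of the 40 listed genes. Their values therefore mix open and other starts and are not a like comparison with windows inside shared regions. Several windows of the broad regions belong to 1 gene, so they are not independent.

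**Figure D1:**
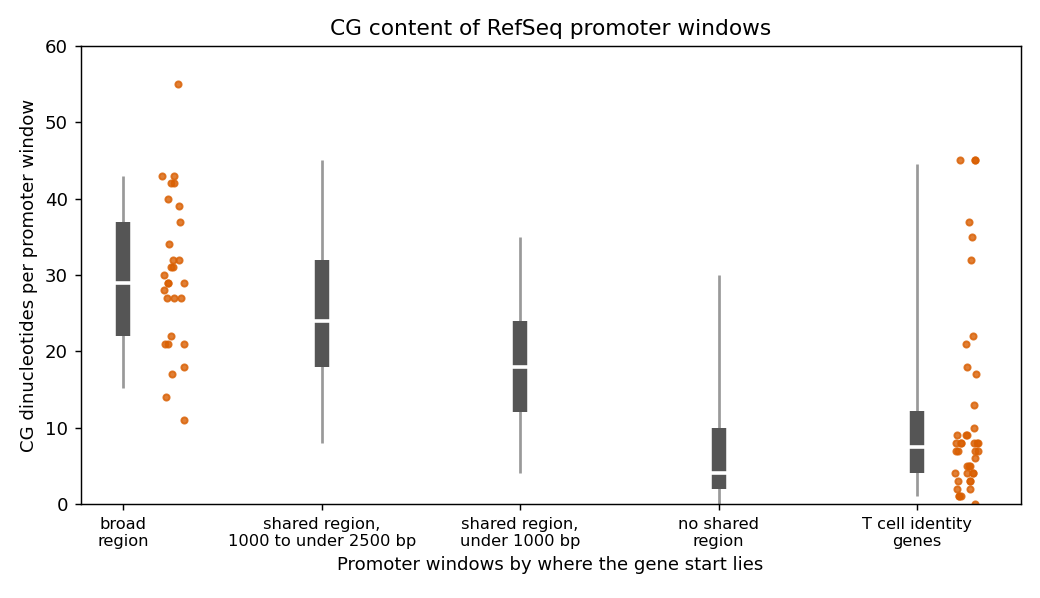
CG dinucleotides per 300-base RefSeq promoter window, by class of window. Windows of T cell identity genes were taken wherever the start lay. Thick bars give the quartiles with a white median mark, thin lines run from the 5th to the 95th percentile, and points are single windows of the broad regions and of T cell identity genes; the medians are 29 at the broad regions and 7.5 at T cell identity genes.

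Short motifs were searched in the same windows on both strands. The GC box GGGCGG, the site read by Sp1-type factors, was found in 25 of 29 windows of the broad regions (86.2%), in 73.1% of windows in shared regions of 1000 to under 2500 bp and in 46.7% of all windows. The CCAAT box was found in 20.7%, 38.0% and 38.5% of the same classes, with the lowest share at the broad regions. TATAAA was found in 6.9%, 4.98% and 12.7%. The CRE motif TGACGTCA was found in 6.9%, 3.87% and 2.26%, and the ETS motif CCGGAAGT in 6.9%, 9.72% and 5.2%. A match describes these letters in these windows and says nothing of binding.

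In width the broad regions formed the far tail of the shared regions. They ranged from 2506 to 3618 bp with a median of 2647 bp, against a median of 851 bp and a 99th percentile of 2011 bp over all shared regions. The classes held 5124 shared regions under 500 bp, 11748 of 500 to under 1000 bp, 7978 of 1000 to under 1500 bp, 1737 of 1500 to under 2000 bp, 244 of 2000 to under 2500 bp and 36 of at least 2500 bp. Counts were highest at 500 to under 1000 bp and fell in each wider class, with no gap at the threshold. Just inside it lay the regions at Ncoa2 (2506 bp), Tex44 (2513 bp) and Btg2 (2515 bp), and just outside it those at Cpeb2 (2496 bp), Psd2 (2488 bp) and Arf6 (2471 bp). Together the 36 regions spanned 98.0 kb on 17 chromosomes, and each was assigned to a different gene.

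**Figure D2:**
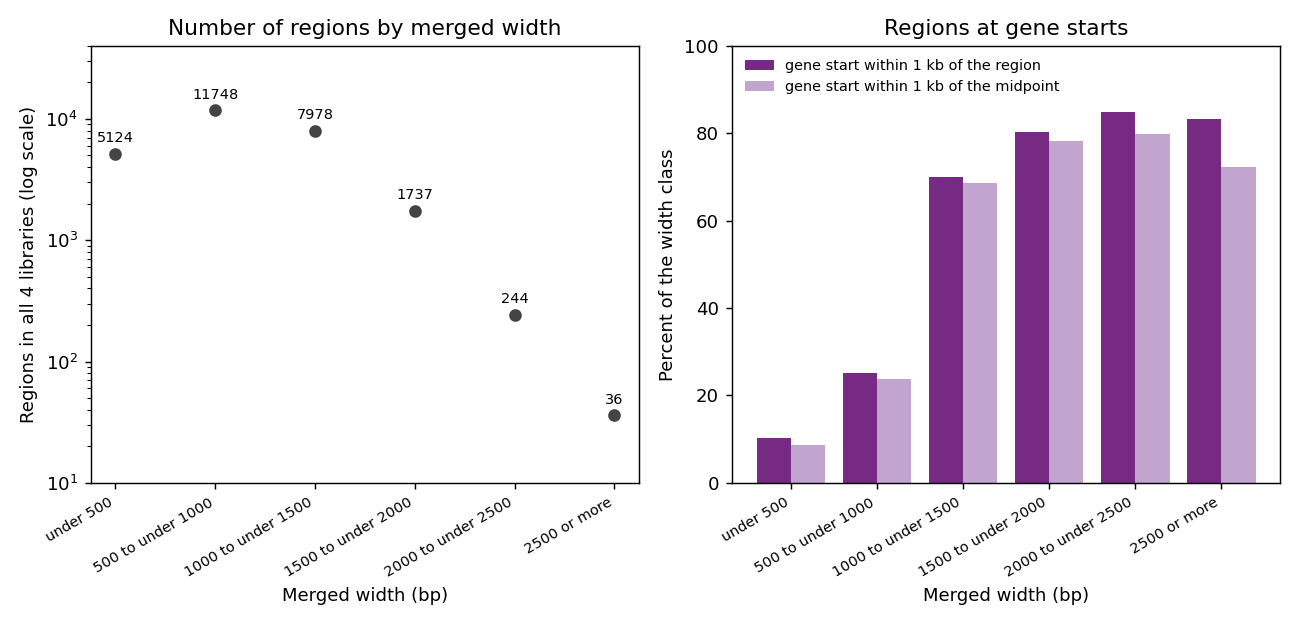
Left, the number of shared regions in each width class on a log axis; right, the percent of each class whose region (dark bars) or midpoint (pale bars) has a protein-coding gene start within 1 kb. Both shares climb steeply up to 1500 bp, and in the broad class they are 83.3% and 72.2%.

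The broad regions were mostly runs of adjoining and overlapping peaks. They held 289 peaks in all, 4 to 13 per region with a median of 8, which came to 70 and 77 peaks in the KO libraries and 82 and 60 in the WT libraries. A library had a single peak in 14 and 14 of 36 regions in the KO libraries, and in 10 and 18 in the WT libraries. Among the other shared regions a single peak was the rule, at 89.4% and 89.7% in KO and 88.9% and 91.7% in WT libraries. Few regions, 6 in all, held 1 peak in each library, among them those at Atxn1, Crlf2, Wdr26, Usp9x and Ncoa2. Such a peak did not always span the region: at Wdr26 that of WT-1 covered 61.6% of it. The threshold was passed by at least 1 single peak in 18 regions, and in the other 18 by the merging of shorter peaks across libraries.

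Covered bases, the part of a region under a peak, were similar over the 4 libraries. The 36 regions were covered over 86263 and 87016 bp in KO libraries and over 85551 and 90058 bp in WT libraries. As a share of the merged width this was 88.0% and 88.8% in the KO libraries, against 87.3% and 91.9% in the WT libraries. The KO values lay between both WT values. Mean coverage was 88.4 ± 0.543% in KO and 89.6 ± 3.25% in WT libraries (SD, n = 2 each), a difference of -1.19 points (two-sided exact permutation p = 1, with 0.333 the smallest that 4 libraries allow). The other shared regions were covered over 74.6% and 81.6% of their width in KO and 80.9% and 84.3% in WT libraries, below the broad regions in each library. Most of them were much narrower. Those of 2000 to under 2500 bp came closer to the broad regions, at 83.2% and 86.2% in KO and 87.1% and 90.4% in WT libraries. Bases covered in all 4 libraries at once, the common core, made up a median of 76.9% of a broad region (45.7 to 98.4%), or 2095.5 bp (1217 to 3045 bp), against 59.7% of the other shared regions.

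The core varied among the regions. It was highest at Ncoa2 (98.4%), Sp3 (95.1%), Gm20783 (94.7%), Crlf2 (94.5%) and Vim (93.1%), where all libraries outlined nearly the same stretch. It was lowest at Pkdcc (45.7%), Mien1 (45.8%), Midn (53.1%), Fli1 (55.0%) and Wdr26 (57.2%), where the libraries' peaks ended at different places.

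**Figure D3:**
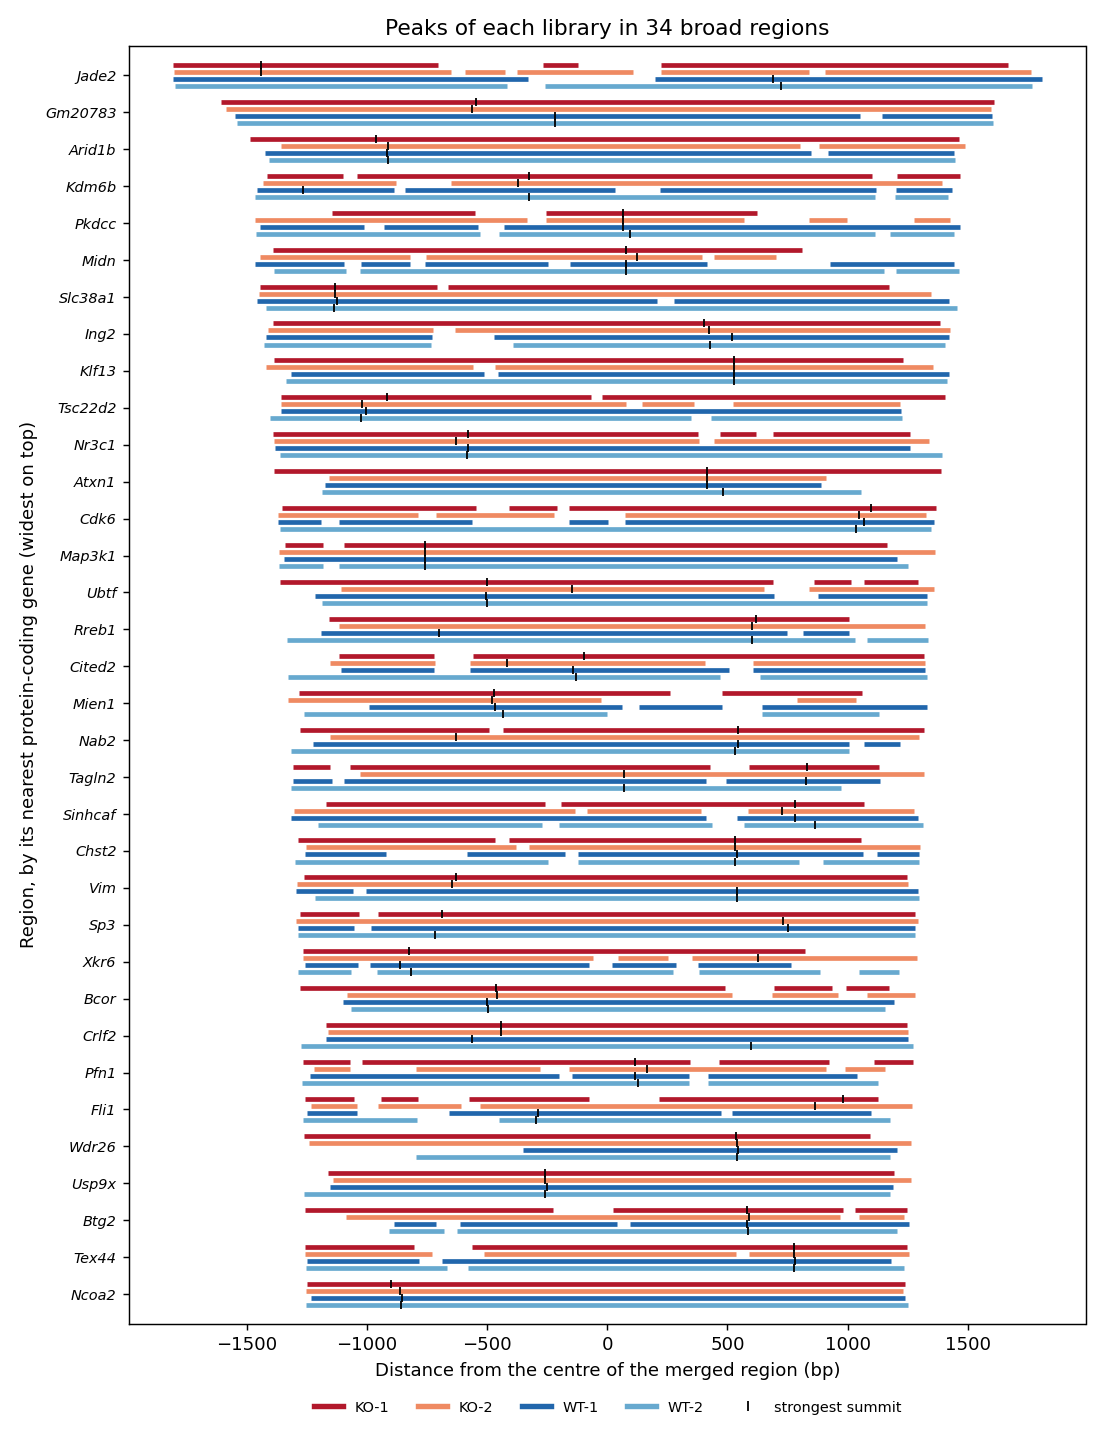
Map of 34 of the 36 broad regions, widest at the top, with the peaks of both KO libraries above those of both WT libraries, drawn as bars against the distance from the region's centre in bp, and black ticks at the strongest summits. Regions such as Ncoa2 are filled by 1 peak in each library, and regions such as Pkdcc by peaks that differ between libraries.

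Breadth did not go with the highest enrichment. The authors' fold enrichment of the strongest peak in a broad region had a median of 5.63 and 7.31 in KO and 7.08 and 6.47 in WT libraries. The 90th percentile over all shared regions was 10.9 and 16.1 in KO and 14.3 and 14.8 in WT libraries. The broad medians were thus below that percentile in each library. The other shared regions had medians of 5.15 and 8.58 in KO and 6.79 and 6.93 in WT libraries, so the broad medians were above them in KO-1 and WT-1 and below them in KO-2 and WT-2. By rank of the authors' −log10 q within a list the broad regions stood higher, at a median percentile of 86.2 and 89.0 in KO and 88.0 and 87.8 in WT libraries. The other shared regions stood at 68.2 and 77.9 in KO and 74.2 and 76.4 in WT libraries.

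Most broad regions lay at gene starts, which were stranded RefSeq starts for 79.9% of protein-coding genes and either end of the gene interval for the rest. Of the 36, 30 (83.3%, 95% Wilson interval 68.1 to 92.1%) overlapped a protein-coding gene start or came within 1 kb of one, against 10678 of the other 26831 shared regions (39.8%) and 15.5% of all merged regions. A wide region meets a start more easily, and at a comparable width the share was the same size: 207 of 244 shared regions of 2000 to under 2500 bp (84.8%) were near a start. By the midpoint, which width does not favour, 26 broad regions (72.2%) lay within 1 kb of a start, against 38.3% of the other shared regions and 79.9% of those of 2000 to under 2500 bp. In order of width class the share near a start was 10.3, 25.2, 70.1, 80.2, 84.8 and 83.3%. It thus rose with width up to 2000 bp and was nearly level beyond it.

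At a start, open chromatin reached further into the gene than ahead of it. The strand was known for a start in 21 broad regions and in 8052 other shared regions, and where a region held several starts the one nearest its midpoint was used for the reach. The median broad region reached 1078 bp upstream and 1737 bp downstream of the start, against 505 bp and 631 bp in the other shared regions. The downstream side was the longer in 15 of 21 broad regions (71.4%) and in 65.2% of the others. At 1000 bp upstream of the start a peak covered 52.4% and 57.1% of the 21 starts in KO libraries and 57.1% and 52.4% in WT libraries. At 1000 bp downstream it covered 71.4% and 66.7% in KO libraries and 66.7% and 71.4% in WT libraries. KO and WT libraries overlapped at both distances. Counting any stranded start inside the region, the strongest summit lay within 300 bp of a start in 11 and 10 of 21 broad regions in KO libraries (52.4% and 47.6%) and in 12 and 11 in WT libraries (57.1% and 52.4%). Among the other shared regions the shares were 90.8% and 90.7% in KO and 91.0% and 91.4% in WT libraries. The summit was that close in all libraries in 10 broad regions, such as Pfn1, Wdr26 and Btg2, and in none in 9 (42.9%, against 5.54% of the others), such as Arid1b, Bcor and Vim. The other shared regions reached a median of only 505 bp and 631 bp from the start, which leaves their summits less room to lie far from it. Regions of like width were not compared, so these contrasts cannot be separated from the width rule.

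**Figure D4:**
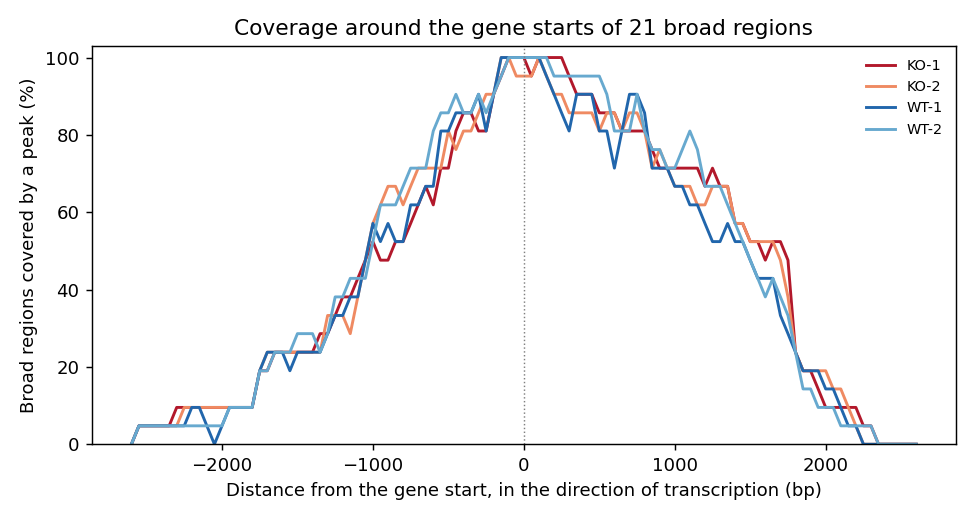
Percent of the 21 broad regions with a stranded gene start that a peak covers, by distance from the start in bp (negative is upstream), with 1 line per library and KO lines first in the legend. The 4 lines run together, with coverage of 95.2 to 100% at the start and a longer downstream side.

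The widest region, 3618 bp at chr11:51855467-51859084, lay within 1 kb of an end of Jade2, a gene for a PHD-finger protein of a histone acetyltransferase complex. It was covered over 2697 and 3274 bp in KO libraries and 3091 and 3411 bp in WT libraries. Several other regions lay at genes known for work on chromatin, named here by their roles and not from a list. They were picked once the broad regions were known. The share of all shared regions at genes with such roles was not counted, so these names show no excess. Arid1b, a subunit of the BAF remodelling complex, had a region of 2975 bp at chr17:4993837-4996811, covered over 2953 and 2768 bp in KO and 2798 and 2855 bp in WT libraries. Kdm6b, which removes methyl groups from lysine 27 of histone H3, had one of 2935 bp at chr11:69408537-69411471, covered over 2728 and 2599 bp in KO and 2573 and 2806 bp in WT libraries. The values of KO and WT libraries overlapped at Jade2, Arid1b and Kdm6b. Ing2 and Sinhcaf, both of Sin3 histone deacetylase complexes, had regions of 2856 bp (chr8:47673368-47676223) and 2630 bp (chr6:148944419-148947048). Bcor, a corepressor that binds BCL6, had one of 2560 bp (chrX:12158041-12160600). Ncoa2, a nuclear receptor coactivator, closed the list at 2506 bp (chr1:13372186-13374691).

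A list of 26 histone and chromatin genes held 3 of the 36 broad regions (8.33%), among them those of Kdm6b and Bcor, against 122 of the 26867 shared regions (0.454%). Arid1b, Jade2, Ing2, Sinhcaf and Ncoa2 were not on that list. The count was 1 when peaks were held to a −log10 q of at least 5 or at least 10, and 1 without KO-1. It was 8 of 280 regions of at least 2000 bp, and 7 of 434 regions with 1500 bp covered in all libraries. The list was chosen with earlier results of these data known, and most shared regions were much narrower than the broad ones. The shares are therefore a description and not a test. By the widest shared region of each gene the list had a median of 1658 bp, against 1135 bp over 12238 genes. Of its 26 genes 8 reached 2000 bp. Neither value allows for the number of shared regions per gene.

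Among genes for transcription factors, Klf13, a Krüppel-like factor of lymphocytes, had a region of 2840 bp at chr7:63937129-63939968 with summits in all libraries within a few bases of each other. Its covered bases were 2621 and 2686 in KO and 2684 and 2750 in WT libraries, which overlapped. Fli1, an ETS factor of blood cells, had one of 2532 bp at chr9:32539270-32541801, covered over 1770 and 2334 bp in KO and 1923 and 2102 bp in WT libraries. Its midpoint lay 2897 bp from the nearest start. Klf13 and Fli1 were the 2 members of a list of 30 lymphoid transcription factors (5.56% of the broad regions, against 243 shared regions, 0.904%). That list too was chosen with earlier results known, and regions of like width were not compared, so the shares are no test. Sp3, which binds the GC box, Rreb1, a zinc-finger factor, Cited2, a partner of CBP and p300, and Nab2, a corepressor of EGR factors, are on no list used here and had broad regions of 2589, 2666, 2657 and 2637 bp. Ubtf, a factor of RNA polymerase I, had one of 2723 bp (chr11:102316484-102319206), which held 4 of the RefSeq windows.

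Signalling genes and regulators of growth included Map3k1, a MAP kinase kinase kinase (2731 bp), and Cdk6, a kinase of the early cell cycle (2739 bp). Crlf2, a receptor chain for TSLP, had a region of 2548 bp at chr5:109556644-109559191. Btg2, an antiproliferative gene induced after receptor signals, had one of 2515 bp at chr1:134077332-134079846. It was the single member of a list of 28 signal feedback genes (2.78% of the broad regions, against 138 shared regions, 0.514%). With 1 region, and a list chosen with earlier results known, these shares are no test. Wdr26, a part of the CTLH ubiquitin ligase, Usp9x, a deubiquitinase, and Midn, midnolin, linked to protein turnover, had regions of 2528, 2524 and 2931 bp. The cytoskeletal genes Vim (2591 bp), Tagln2 (2635 bp) and Pfn1 (2545 bp) completed the set, with Slc38a1, a glutamine transporter (2913 bp at chr15:96640442-96643354), and Chst2, a sulfotransferase (2601 bp).

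Regions away from a start in the annotation used here were few. They lay nearest to Kdm6b, Pkdcc, Nr3c1, Mien1, Fli1 and Tex44, with midpoints 10363, 62167, 28848, 3041, 2897 and 15493 bp from the nearest start, gene ends standing in for starts only where no strand was at hand. No strand was at hand on chr18, so the distance for the Nr3c1 region is to an end of a gene interval. Starts inside that gene could not be seen, and whether this region lies away from a start is not known. The region nearest to Nr3c1, the glucocorticoid receptor gene, was 2783 bp wide at chr18:39489182-39491964, with 2489 and 2672 bp covered in KO and 2643 and 2755 bp in WT libraries. The one nearest to Pkdcc, a protein kinase of the secretory pathway, was 2933 bp at chr17:83275984-83278916 and lay 52381 bp outside the gene. Those nearest to Mien1, named for migration and invasion, and to Tex44, a testis-expressed gene, were 2657 bp (chr11:98457086-98459742) and 2513 bp (chr1:86440566-86443078) wide.

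Gm20783, a predicted gene to which no role is given here, had the second widest region, 3216 bp at chr9:124422764-124425979, and the stranded start inside it was that of LOC108167694. It was covered over 3216 and 3185 bp in KO and 3061 and 3143 bp in WT libraries, so both KO values were the higher ones. Tsc22d2, of the TSC22 leucine-zipper family, had a region of 2812 bp at chr3:58414290-58417101. Atxn1, the ataxin gene of a hereditary ataxia in humans, had one of 2775 bp at chr13:45963260-45966034, which KO-1 alone filled, with 2775 and 2069 bp covered in KO and 2064 and 2244 bp in WT libraries. Xkr6, of the XK-related membrane proteins, had one of 2577 bp at chr14:63605902-63608478, covered over 2090 and 2354 bp in KO and 1786 and 2126 bp in WT libraries.

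T cell identity genes were not frequent among the broad regions. A list of 40 such genes, among them Cd3e, Lck, Cd28 and Tcf7, held 0 of 36 broad regions, which allows a share of up to 8.33%. All 40 genes had at least 1 shared region, 280 in all or 1.04% of the shared regions, and at that rate 0.375 broad regions would be counted. With so few broad regions, 0 could not be told from that rate. Over the width classes the share at these genes was 1.39, 1.30, 0.564, 0.576, 0.41 and 0%, from narrowest to widest. The larger set of 434 regions with 1500 bp covered in all libraries also held 0 (up to 0.691%).

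The widest region of a T cell identity gene was 2159 bp at Satb1, a chromatin organiser of thymocytes, at chr17:51831488-51833646. It was covered over 1662 and 2039 bp in KO and 1877 and 1833 bp in WT libraries, which overlapped. Runx1 (1920 bp), Zap70 (1917 bp), Cd6 (1871 bp) and Ccr7 (1836 bp) followed. At Zap70, the kinase of the T cell receptor, 1857 and 1541 bp were covered in KO and 731 and 1472 bp in WT libraries. At Ccr7, the homing receptor of lymph nodes, 1594 and 1654 bp were covered in KO and 1070 and 885 bp in WT libraries. At Zap70 and Ccr7 both KO libraries were above both WT libraries, as they were at 13.9% of all shared regions. By the widest region per gene the identity list had a median of 1154.5 bp, against 1135 bp over all genes with a shared region, and 1 of 40 genes (2.5%) reached 2000 bp, against 278 of 12238 (2.27%). These values were close to each other, but a gene with more shared regions has more chances of a wide one. The 40 identity genes had 280 shared regions, against 26014 at the 12238 genes. The comparison does not allow for this, so it does not show that identity genes match the background in width.

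The remaining lists had no broad region. The widest shared region was 2046 bp at Maf for activation and effector genes, 2377 bp at Ywhaz for housekeeping genes, 1448 bp at Pou2af1 for B cell genes, 1700 bp at Cebpa for myeloid and dendritic cell genes, 1182 bp at Klrb1c for natural killer genes, 1373 bp at Cd8b1 for CD8 genes, 1241 bp at Pmel for melanocyte genes and 1232 bp at Hoxb4 for developmental genes. Regions at the 17 B cell genes were unevenly spread over the libraries, with a peak in 23 and 34 of 204 regions in KO libraries and in 145 and 169 in WT libraries, while Cd79a, Cd79b and Ms4a1 had no shared region. Regions at the 18 myeloid and dendritic cell genes leaned the same way, with a peak in 41 and 64 of 135 regions in KO libraries and in 92 and 106 in WT libraries, and Lyz2, Csf1r and Itgax had no shared region. The share of all merged regions with a peak in each library was not counted, so no background stands beside these counts. The whole lists held 43078 and 61773 peaks in KO and 56852 and 61489 in WT libraries. At T cell identity genes a peak was found in 411 and 557 of 765 regions in KO libraries and in 455 and 480 in WT libraries. The part of the B cell and the myeloid and dendritic cell lists in the comparison of covered bases was not tested. None of the 36 broad regions was at a gene on either of these 2 lists.

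KO and WT libraries were compared by covered bases. After each library was centred on its median over the shared regions (591 and 680 bp in KO, 665 and 699 bp in WT libraries), limma called 0 of the 36 broad regions and 0 of 26867 shared regions in either direction at an adjusted p of 0.05 (0.0% called). The smallest adjusted p was 0.297 among the broad regions and 0.138 over all. At an unadjusted p under 0.05, 2 of the broad regions (5.56%) and 2522 of all shared regions (9.39%) were counted. The median log2 difference of KO minus WT was 0.08 over the broad regions and 0.04 over all, and 31 of 36 broad regions (86.1%) were above 0, against 56.6% of all shared regions. Without the centring the median of the broad regions was -0.02 and 13 were above 0, so the direction of the group rests on the centring. In simulated data with the same spread at every region, the fit called 3 of 200 shared regions that were given a log2 difference of 0.5. Real differences of that size could thus be missed among the shared regions. The median standard error was 0.138 at the broad regions and 0.262 over all shared regions. The simulated rate therefore does not describe the broad regions, and what the fit would miss among them was not measured.

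In covered bases before centring, both KO libraries lay above both WT libraries at 5 broad regions, those of Gm20783, Ing2, Nab2, Wdr26 and Btg2 (13.9%, against 13.9% of all shared regions). They lay below both at 6, among them those of Pkdcc, Slc38a1, Bcor, Crlf2 and Tex44 (16.7%, against 26.9%). The first share equalled the background and the second was below it. After centring, the log2 difference of KO minus WT was slightly above 0 at Slc38a1 (0.021), Bcor (0.024), Crlf2 (0.063) and Tex44 (0.034). Of the regions named as lower in KO libraries, only that of Pkdcc stayed below 0. The largest positive difference was at Wdr26 (chr1:181210186-181212713), covered over 2359 and 2504 bp in KO and 1558 and 1974 bp in WT libraries. Its log2 difference was 0.58 (SE 0.143, 95% interval 0.243 to 0.909), with an adjusted p of 0.297 by limma. The authors' fold enrichment of the strongest peak at Wdr26 went the other way, at 6.46 and 7.23 in KO and 11.7 and 10.9 in WT libraries. The peaks there were thus wider in KO libraries and higher in WT libraries. The largest negative difference in covered bases was at Pkdcc, covered over 1473 and 2269 bp in KO and 2726 and 2760 bp in WT libraries. Its log2 difference was -0.48 (SE 0.165, 95% interval -0.863 to -0.098), with an adjusted p of 0.427 by limma. KO-1, which had the fewest peaks of all libraries, was the lowest at Pkdcc. The Pkdcc difference was -0.25 without KO-1, -0.87 without KO-2 and -0.85 with peaks held to a −log10 q of at least 10, so its size depends on which libraries and peaks enter.

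**Figure D5:**
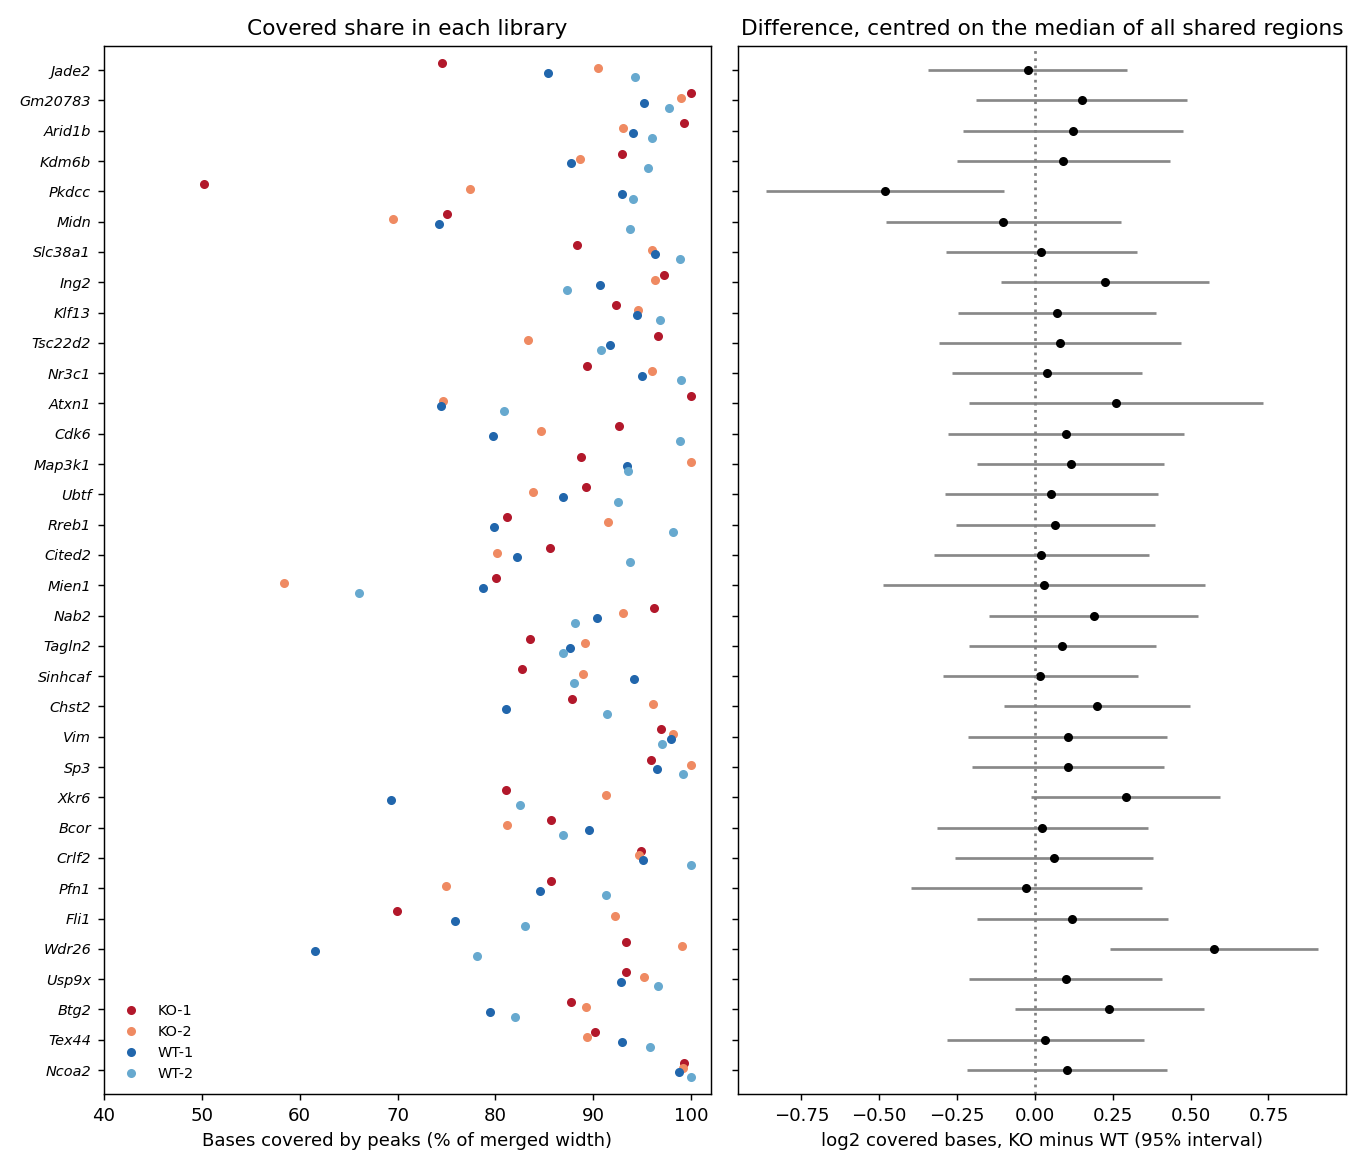
Left, covered bases of 34 of the 36 broad regions as a percent of their merged width, 1 point per library; right, the log2 difference of KO minus WT after centring, with bars for the 95% interval from limma. KO and WT points overlap at most regions, and Wdr26 and Pkdcc stand at the ends with log2 differences of 0.58 and -0.48.

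The strongest summit did not stand at the same place in all libraries in every broad region. All 4 summits lay within 100 bp in 20 of 36 broad regions (55.6%), in 69.9% of the 1981 other shared regions of at least 1500 bp and in 77.2% of all shared regions. In 2 broad regions (5.56%), Jade2 and Vim, the summits agreed within 100 bp in each genotype and lay at least 500 bp apart between genotypes, against 0.395% of all shared regions and 1.82% of the 1981 others. This pattern was chosen after values were seen. At Jade2 the summits stood 368 and 368 bp from the left edge in KO libraries, against 2500 and 2533 bp in WT libraries. The authors' fold enrichment at the left summit was 3.96 and 4.70 in KO libraries and that at the right one 3.81 and 4.39, while in WT libraries the left end reached 4.98 and 3.85 and the right one 5.1 and 5.01. Both ends of the Jade2 region were thus open in every library, with close heights in KO-1, KO-2 and WT-1. At Vim, the intermediate filament gene, they stood 411 and 431 bp upstream of the start in KO libraries, against 755 and 757 bp downstream in WT libraries. Covered bases at Vim were 2510 and 2543 in KO and 2537 and 2512 in WT libraries and overlapped, so the outline was shared while the highest point was not. A similar shift at Fli1, with 2248 and 2129 bp in KO libraries and 977 and 970 bp in WT libraries, fell just outside the limit of 100 bp.

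The 4 libraries differed in size. KO-1 and KO-2 had 43078 and 61773 peaks over 20.9 and 27.6 Mb, and WT-1 and WT-2 had 56852 and 61489 peaks over 26.8 and 29.6 Mb. Single peaks of at least 2500 bp numbered 6 and 6 in KO and 5 and 13 in WT libraries. The KO libraries set the left edge of 10 and 9 of the 36 regions and the right edge of 7 and 13, and the WT libraries the left edge of 5 and 16 and the right edge of 6 and 10. The rule was passed by 26 regions without KO-1, 26 without KO-2, 32 without WT-1 and 24 without WT-2, so the merged width leans on several libraries. The sources used here give no read numbers, so depth is unknown and its part in these values was not tested. In such bulk libraries, fewer cells with an open region and less opening per cell cannot be told apart.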

How the data were processed

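The submitters' processing notes name MACS2, BWA, Picard, SAMtools and deepTools and the build GRCm38 (mm10), while versions and settings are not given in the labels. The deposited lists hold 1 row per peak and library, called per library, with position, score, fold enrichment (a ratio to the caller's background), −log10 p, −log10 q and summit offset. The deposited score was not used. The fold and −log10 values are the authors' own and serve only to describe peaks of a list, to rank them in it or to filter it. Depth is unknown.

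Peaks overlapping by at least 1 bp were merged (Python 3.11, pandas 2.3.3). Each region took the protein-coding RefSeq gene (GRCm38.p6) nearest its midpoint within 100 kb, ties going to the nearest stranded start. A stranded start was at hand for 17274 of 21631 genes (79.9%), and both interval ends stood in for the rest. Log2 covered bases were fitted with limma 3.58.1 (R 4.3.3), KO minus WT, with Benjamini-Hochberg adjustment over 26867 regions. Fits were tested on simulated data, with a log2 difference added in KO at 200 shared regions and the same spread at every region. At an added 0.5 the fit called 3 of the 200, and at 1.0 it called 174 and 10 other regions. Replicate numbers came from the titles and were not shown to pair libraries. Sequences are RefSeq promoter windows.

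The members, gene lists and named regions were chosen with earlier results of these data known. Named by rule were the 10 widest regions, listed genes with a broad region, the 5 lowest and 5 highest core shares, and the 3 regions on each side of the threshold. Other names were added after their values were seen. Alternatives covered stricter peaks, equal list lengths, overlap, gaps, width, gene distance, centring, autosomes, a replicate block and each library left out. Of the items this rule or these lists select some are not reported here, though they are counted in the totals.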

Additional observations from a re-analysis of the deposited data

How the results depend on the processing

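The number of broad regions was 106 when peaks within 200 bp were merged, 280 at a width of at least 2000 bp, 2 at 3000 bp and 434 when defined by 1500 bp covered in all libraries. Stricter peaks, equal list lengths, an overlap of at least 100 bp and autosomes alone gave 30 to 36, and leaving out 1 library gave 24 to 32. The share near a start was 100% for the 2 regions of at least 3000 bp and otherwise 72.2 to 90.6%. T cell identity genes held 0 broad regions in each setting but 1, a width of at least 2000 bp, where Satb1 made 0.357%. The difference in covered share, KO minus WT, had the other sign at a −log10 q of at least 10 (0.397 points), and ranged from -2.82 to 1.29 points with 1 library left out, above 0 without KO-2 (0.323) or WT-2 (1.29). The cause was not tested.

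With a replicate block, limma called 4 shared regions, all lower in KO, against 0 without it. The deviations of equally numbered libraries had a correlation of 0.003 over 26867 regions, so the numbers were not shown to pair libraries. Leaving out 1 library gave 0 to 137 called regions, 85 without WT-1 and 137 without WT-2, where the lone WT library is assumed to vary like the KO libraries. No broad region was called in any of these settings.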

Other observations

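The surroundings of the broad regions were close to those of other shared regions. Within 50 kb of a broad region there was a median of 9.5 other regions, against 9 for the other shared regions. A region with peaks in both KO libraries alone lay within 50 kb of 6 broad regions (16.7%, against 18.7% of the other shared regions). A region with peaks in both WT libraries alone lay within 50 kb of 17 (47.2%, against 50.1%).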
